A study of Oryctolagus cuniculus with 12 samples.

Results

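Lactate dehydrogenase A (LDHA), aldolase A (ALDOA), glyceraldehyde-3-phosphate dehydrogenase (GAPDH) and the hypoxia-responsive gene ANKRD37 were followed in the basilar artery of rabbits with experimental subarachnoid hemorrhage (SAH), bleeding into the space between the membranes that cover the brain. The members were all non-control probes that the array's gene names, accessions or descriptions assign to these 4 genes. They were 12 of 43623 non-control probes: 5 for LDHA, 1 for ALDOA, 1 for GAPDH and 5 for ANKRD37. All 12 passed the filter on dim probes, which kept 26434 probes and 7312 named genes in all.

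Total RNA of the artery on the underside of the brainstem was hybridised to 12 single-colour (Cy3) arrays, with 3 samples in each of 4 groups. The groups were control (normal condition, day 0), SAH day 3, SAH day 5 and SAH day 7. The labels give neither the strain, age or sex of the rabbits, nor the way the hemorrhage was made, nor whether a control had sham surgery. They do not say that samples of a group came from separate animals, so p-values measure only the spread between these samples.

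Glycolysis splits glucose into pyruvate in the cytosol, and cells without enough oxygen turn the pyruvate into lactate. Many of its enzymes, and a set of genes outside metabolism, are transcribed under the hypoxia-inducible factors (HIFs), whose alpha subunits are broken down while oxygen is present. Smooth muscle of arteries makes much lactate even in air, and GAPDH is widely used as a reference transcript in such tissue. These statements are background and not results of the arrays.

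The probe sequences show how far the probes of a gene are independent of each other. Each probe is 60 bases long, read from the array files. The 5 LDHA probes share the 38 bases in capitals, and the 2 that lie farthest apart are printed. The 5 ANKRD37 probes share the 55 bases in capitals, and the 1 that stands for the gene and the 1 shifted farthest upstream of it are printed. ALDOA and GAPDH have 1 probe each, so no base of theirs is in capitals.
LDHA A_04_P003196: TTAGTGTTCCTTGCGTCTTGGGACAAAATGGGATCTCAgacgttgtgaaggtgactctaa
LDHA A_04_P003200: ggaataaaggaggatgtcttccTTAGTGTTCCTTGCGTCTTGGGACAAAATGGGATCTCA
ALDOA A_04_P000693: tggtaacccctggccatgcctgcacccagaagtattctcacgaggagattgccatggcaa
GAPDH A_04_P001361: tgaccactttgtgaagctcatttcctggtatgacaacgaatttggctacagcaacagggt
ANKRD37 A_04_P075145: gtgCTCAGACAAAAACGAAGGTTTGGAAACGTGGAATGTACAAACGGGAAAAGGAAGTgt
ANKRD37 A_04_P075146: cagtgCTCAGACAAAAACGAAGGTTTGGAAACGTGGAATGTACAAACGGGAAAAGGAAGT

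The LDHA probes were tiled over 1 stretch of the transcript, as were those of ANKRD37, so probes of 1 gene are repeated readings and not separate evidence. No other probe of the array shared 20 bases with a member on either strand. The array's own annotation places the LDHA probes on chromosome 12 between 101719768 and 101719848, on the minus strand. It places the ALDOA probe on chromosome 6 between 18447966 and 18448025. It places the GAPDH probe on chromosome 8 between 32584296 and 32584468, a span longer than the probe itself. The ANKRD37 probes lie on chromosome 2 between 62853185 and 62853246, and the last 3 of these genes are on the plus strand. The array files name no genome build for these positions, and they do not say which exon holds them. The array describes the ANKRD37 transcript as a predicted gene similar to ANKRD37, and the name rests on that description.

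Values are log2 of the processed signal relative to the 75th percentile of the same array. A difference was called at an adjusted p below 0.05 in limma, with Benjamini-Hochberg adjustment over all 26434 tested probes. A gene with several probes is given by its tested probe with the highest mean. The 75th percentile lay between 127 and 191 across the arrays, no spot was saturated, and arrays of a group correlated at r of at least 0.964. Control replicate 2 stood apart: 50.1% of its spots were well above background and 169 were outliers, against 58.2% to 64.0% and 1 to 16 on the others.

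LDHA, which converts pyruvate to lactate and restores the NAD+ that glycolysis needs, was called higher on day 3. Its level was 1.57, 1.58 and 2.08 in the 3 controls. On day 3 it was 3.04, 3.29 and 3.63, on day 5 it was 2.29, 2.25 and 2.34, and on day 7 it was 2.64, 2.09 and 2.13. Day 3 arrays were the highest, with every array above all arrays of the other groups. Arrays of days 5 and 7 overlapped each other and lay above all controls, as for 10.3% of probes on day 5 and 12.3% on day 7. They sat just above the highest control, control replicate 3, with a gap of 0.0060 between it and the lowest day 7 array. At another LDHA probe, A_04_P003198, day 7 overlapped the controls. The order of the group means was day 3 (3.32 ± 0.30), day 5 (2.29 ± 0.05), day 7 (2.29 ± 0.31) and control (1.74 ± 0.29; SD, n = 3 each).

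LDHA rose 2.99-fold on day 3, a log2 change of 1.58 with a standard error of 0.21 and a 95% confidence interval of 1.12 to 2.04 (limma, adjusted p = 0.0014). All 5 probes were called higher on day 3, with changes of 1.47 to 1.58, while 6.64% of all tested probes were called in either direction and 4.71% were called higher. Each replicate number is 1 slide that holds an array of every group. Within the slides the day 3 change was 1.47, 1.71 and 1.55, so it was similar on all of them.

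On day 5 the LDHA change was 0.55, or 1.47-fold, with an interval of 0.09 to 1.02 (limma, adjusted p = 0.244). On day 7 it was 0.54, or 1.46-fold, with an interval of 0.08 to 1.01 (limma, adjusted p = 0.211). Neither was called, and 0 of the 5 probes were called on either day (all 5 had an unadjusted p below 0.05 on both), when 2.02% of all probes were called on day 5 and 2.26% on day 7. Of the 26434 tested probes, 3804 on day 5 and 4692 on day 7 had an unadjusted p below 0.05. With the slide as a block in the fit the called probes were 954 on day 7, against 597 without it, and LDHA was again not called. The within-slide changes were 0.73, 0.67 and 0.26 on day 5, and 1.07, 0.51 and 0.05 on day 7, so the size varied between slides while every sign was positive. At the probe that stands for LDHA, all 9 arrays after the hemorrhage lay above all 3 controls, as for 5.19% of the probes measured on every array. The comparisons with the controls share those 3 arrays. At probe A_04_P003198 day 7 replicate 2 (1.76) lay below control replicate 3 (1.81).

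The later days lay lower than day 3 for LDHA: the change was -1.03 for day 5 against day 3 and also -1.03 for day 7 against day 3. Neither passed the test over all probes (limma, adjusted p = 0.171 and 0.115), although the groups did not overlap, with every later array below day 3 as for 6.34% and 10.2% of probes. Few probes passed in these comparisons, 0.0113% for day 5 against day 3 and 0.144% for day 7 against day 3, where 2 probes passed with the slide as a block and 38 without it. Day 7 and day 5 differed by -0.01 with an interval of -0.47 to 0.45, and 0% of probes were called between these days, with 414 at an unadjusted p below 0.05. The F test over the 3 days, which asks for any difference from the controls, called LDHA (adjusted p = 0.0090), with 2.96% of all probes called. The lower level after day 3 passed the test under array weights and under another background correction (normexp), at -0.99 and -1.22 for day 5 against day 3 (limma, adjusted p = 0.0112 and 0.0261). For day 7 against day 3 the same settings gave -0.89 and -1.07 (limma, adjusted p = 0.0397 and 0.0480).

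**Figure D1:**
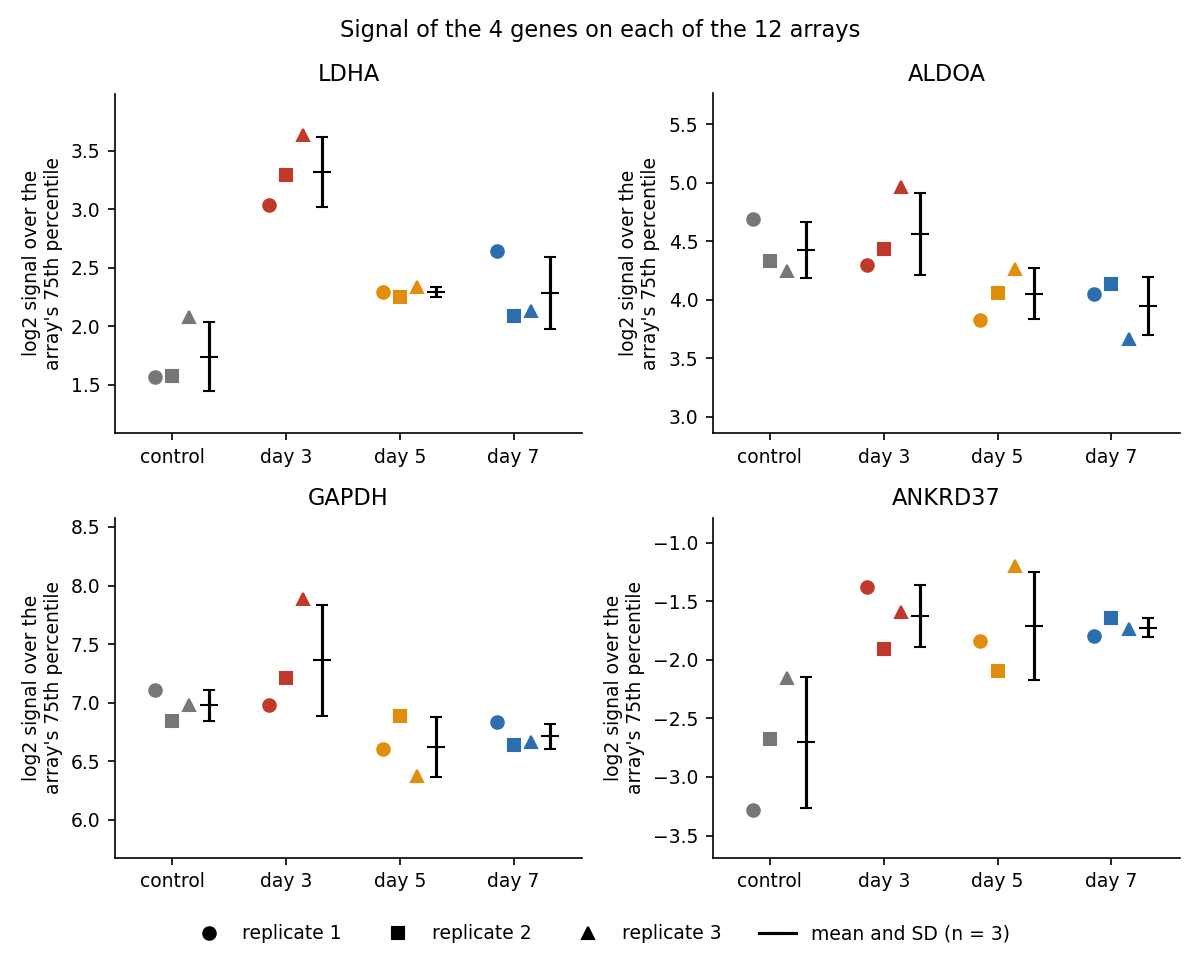
Level of LDHA, ALDOA, GAPDH and ANKRD37 on each of the 12 arrays, as log2 signal over the array's 75th percentile; each panel has its own range of levels and the same length of axis. Points are arrays, with the symbol giving the replicate number, and bars are mean and SD (n = 3). LDHA stands highest on day 3, and at the ANKRD37 probe shown the controls all lie below the later arrays.

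ANKRD37 encodes a small ankyrin repeat protein whose transcript is a HIF target in human cells. It was near the limit of detection in the controls. Its processed signal was 18.8 to 30.5 there, while it was 50.9 to 65.0 at day 3, 38.3 to 63.7 at day 5 and 40.8 to 46.2 at day 7. Its level was -3.28, -2.68 and -2.16 in the controls. On day 3 it was -1.38, -1.91 and -1.59, on day 5 it was -1.84, -2.09 and -1.20, and on day 7 it was -1.80, -1.64 and -1.74. At this probe, A_04_P075145, all 9 later arrays were above all 3 controls, as for 5.19% of probes, with a gap of 0.06. The 3 later groups overlapped each other. At probes A_04_P075143 and A_04_P075146 the day 5 arrays overlapped the controls.

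On day 3 the ANKRD37 change was 1.08, or 2.11-fold, with a standard error of 0.29 and an interval of 0.44 to 1.71 (limma, adjusted p = 0.0487). Of its 5 probes, 3 were called higher, with changes over all 5 of 0.85 to 1.57. The call was close to the threshold and was lost in 13 of 22 other settings. It was lost when any 1 array was left out except control replicate 3 or day 5 replicate 3. Over these 12 fits the change was 0.79 to 1.35 and the limma adjusted p 0.0197 to 0.152. With the other background correction, which adds an offset of 50 to every signal, the change was 0.31 (limma, adjusted p = 0.456). Such an offset by itself shrinks the log2 change of a dim probe, and its part here was not tested. The within-slide changes were 1.90, 0.77 and 0.56, all positive.

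The ANKRD37 change was 0.99 on day 5, with an interval of 0.36 to 1.63 (limma, adjusted p = 0.124), and 0.98 on day 7, with an interval of 0.34 to 1.61 (limma, adjusted p = 0.106). None of the 5 probes was called on these days, and 4 on day 5 and 5 on day 7 had an unadjusted p below 0.05. So did 3804 and 4692 of the 26434 tested probes. The within-slide changes were 1.44, 0.59 and 0.96 on day 5 and 1.48, 1.04 and 0.42 on day 7. Differences between the days were between -0.10 and -0.02, with intervals that ran from -0.73 to 0.62 at their widest, and the F test gave an adjusted p of 0.133. Control replicate 3 was the highest control, and without it the day 5 change was 1.27 (limma, adjusted p = 0.0437) and the day 7 change 1.25 (limma, adjusted p = 0.0312).

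Of the ANKRD37 probes, 4 were not well above background on every control array and so passed the filter through the later groups, which favours a difference. They include all 3 that were called. The fifth, A_04_P075146, was well above background on all 12 arrays and had a day 3 change of 0.85 (limma, adjusted p = 0.120). Its level was -1.16, -1.97 and -1.69 on day 3, against -3.01, -2.21 and -2.16 in the controls, so it also did not overlap there. On day 5 it was -2.02, -2.35 and -1.44 and overlapped the controls, with a change of 0.52 (limma, adjusted p = 0.477). Every array above the controls on day 3 was seen for 13.1% of probes.

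**Figure D2:**
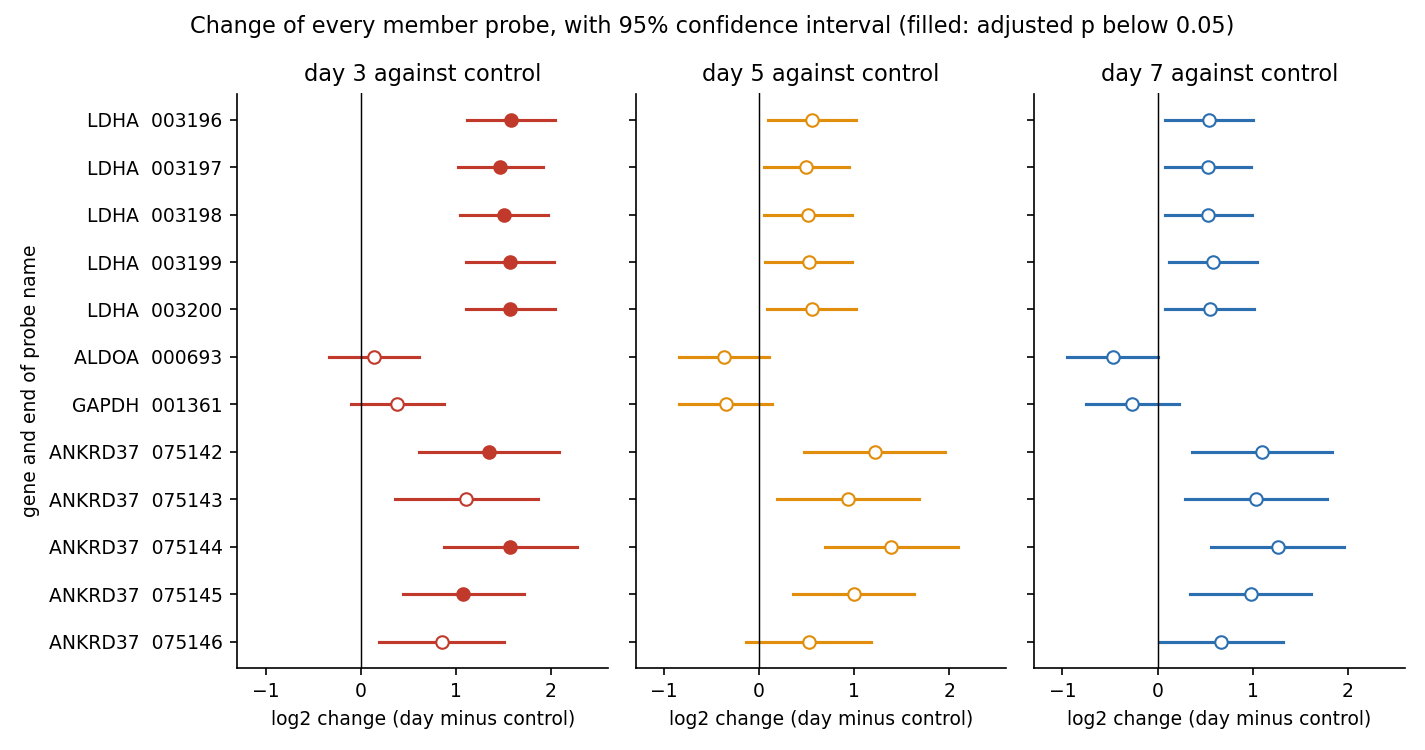
Log2 change against the controls for each of the 12 probes, with 95% confidence intervals; filled points have an adjusted p below 0.05. All 5 LDHA probes and 3 of the 5 ANKRD37 probes are filled on day 3, and none is filled on days 5 and 7.

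GAPDH catalyses the step of glycolysis that first makes NADH. Its level was 7.11, 6.84 and 6.98 in the controls. On day 3 it was 6.98, 7.21 and 7.89, on day 5 it was 6.60, 6.89 and 6.38, and on day 7 it was 6.83, 6.64 and 6.66. Day 3 replicate 3 was the highest of all arrays, and the day 3 group overlapped the controls. Its change was 0.38 on day 3, with an interval of -0.11 to 0.87 (limma, adjusted p = 0.358). It was -0.35 on day 5, with an interval of -0.84 to 0.14, and -0.26 on day 7, with an interval of -0.75 to 0.23 (limma, adjusted p = 0.528 and 0.575). On day 7 every array lay below the controls, as for 8.96% of probes. The within-slide day 3 changes were -0.13, 0.37 and 0.91, and so differed in sign between slides. GAPDH was lower on day 5 than on day 3 by a change of -0.74 that was not called (limma, adjusted p = 0.453). Both differences rested in part on day 3 replicate 3: without it the day 3 change was 0.12 and that of day 5 against day 3 was -0.47 (limma, adjusted p = 0.834 and 0.9999).

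ALDOA, the muscle form of the enzyme that splits fructose bisphosphate, was 4.69, 4.33 and 4.24 in the controls. It was 4.30, 4.43 and 4.96 on day 3, 3.83, 4.06 and 4.27 on day 5, and 4.05, 4.13 and 3.66 on day 7. Days 3 and 5 overlapped the controls, and every day 7 array lay below them, as for 8.96% of probes. Its change was 0.14 on day 3, with an interval of -0.34 to 0.61 (limma, adjusted p = 0.768). It was -0.37 on day 5 and -0.47 on day 7 (limma, adjusted p = 0.487 and 0.282), with intervals of -0.84 to 0.10 and -0.95 to 0.0009. Within the slides the day 3 change was -0.40, 0.10 and 0.71. ALDOA was not called between any groups, and the F test gave adjusted p of 0.284 for it and 0.224 for GAPDH.

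Set against GAPDH on the same array, which takes out the array's scale, LDHA was -3.94, -3.92 and -4.26 on day 3, against -5.54, -5.26 and -4.90 in the controls. The difference was 1.20, or 2.29-fold. On day 5 it was 0.91 and on day 7 0.81, and the groups did not overlap on any of the 3 days. An exact two-sided permutation test gave p = 0.1 each time, which is the smallest that 3 against 3 arrays allow, and 0.18 after adjustment over 9 comparisons. The same ratio for ANKRD37 differed by 0.69 on day 3, where the groups overlapped (exact permutation p = 0.2), and by 1.35 and 1.24 on days 5 and 7. For ALDOA it differed by -0.24, -0.02 and -0.21. None of the 9 ratios passed the test after adjustment, and a ratio does not show that GAPDH was constant. GAPDH's own changes, none called, enter every ratio. That of day 3 (0.38) lowers it, and those of day 5 (-0.35) and day 7 (-0.26) raise it. The share of all probes whose ratio to GAPDH did not overlap was not computed.

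Markers of other cells moved in the same samples. Of 7 macrophage markers listed, all 4 that were tested (CD14, CD68, MSR1 and C1QB) were called higher on all 3 days, with a summed level (the sum of the linear signals over the 75th percentile) of 16.0 to 21.3 in the day 3 samples, 19.7 to 27.9 in those of day 5 and 18.6 to 24.2 in those of day 7, against 5.2 to 8.5 in the controls. The MSR1 calls of days 5 and 7 were lost without control replicate 2 (limma, adjusted p = 0.0755 and 0.0938). They were also lost with the other background correction (limma, adjusted p = 0.0507 and 0.122). That correction, with its offset of 50, lowered the MSR1 day 3 change from 2.47 to 0.71, which remained called (limma, adjusted p = 0.0384). MSR1 was well above background on only 10 arrays, with control levels of -2.29, -4.39 and -3.93. Of all genes, 6.89% were called in either direction on day 3, 2.16% on day 5 and 2.56% on day 7. All 4 tested cell division genes were called higher on day 3, with sums of 3.7 to 6.0 against 0.6 to 1.3 in the controls, and 3 of 4 on days 5 and 7. Of 7 smooth muscle markers, MYL9 was called lower on day 3 and none on the other days, with a median change of -0.58, -0.62 and -0.62. At an unadjusted p below 0.05 there were 4 on day 3, 5 on day 5 and 7 on day 7. Only 1 change was positive on day 3 and 0 on the later days. On day 7, 6 of the 7 had every array below the controls, as for 8.96% of probes. The summed level of the 7 markers was 398 to 480 at day 3, 381 to 472 at day 5 and 350 to 467 at day 7, against 543 to 736 in the controls. Their defining genes ACTA2 and MYH11 had levels of at least 5.59 on every array, so the markers of the labelled artery were present. Of 5 tested fibroblast genes, COL1A1 and COL1A2 were called higher on all 3 days and LUM on days 3 and 7, while PTGDS was called lower on day 3. Their sum was 937 to 960 at day 3, 1262 to 1408 at day 5 and 1401 to 1666 at day 7, while it was 1198 to 2222 in the controls. None of 5 endothelial, 4 neutrophil, 2 erythroid, 2 skeletal muscle or 1 neural markers was called on any day. At most 2 of a list had an unadjusted p below 0.05, against 5682, 3804 and 4692 of the 26434 tested probes on days 3, 5 and 7. The summed level of the 2 skeletal muscle genes, ACTA1 and CKM, was nonetheless lower on all later arrays, at 109 to 158 in the day 3 samples, 110 to 181 in those of day 5 and 136 to 176 in those of day 7, against 188 to 249 in the controls. Of the 2 genes, only ACTA1 had all 9 later arrays below the controls by itself, as for 2.5% of probes. On day 7 the sum of the erythroid genes HBA and ALAS2 was 71.9 to 113, against 26.4 to 49.4 in the controls. Of the 2, only HBA had every day 7 array above the controls by itself, as for 12.3% of probes. The neural gene SYT1 was 0.065 to 0.079 on day 7, against 0.14 to 0.29 in the controls, and every array below was seen for 8.96% of probes. SYT1 was the 1 tested of 4 neural genes named on the array. The other sums of these 5 lists overlapped the controls. In such bulk samples fewer cells of a type and less RNA per cell cannot be told apart, and the part these markers have in the LDHA and ANKRD37 changes was not tested.

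The other enzymes of glycolysis did not pass the test on any day. Of 18 in the list, 10 were tested and 0 were called, while 6.89% of genes were called on day 3, 2.16% on day 5 and 2.56% on day 7. At an unadjusted p below 0.05 the count was 0 on day 3, 2 on day 5 and 2 on day 7, against 5682, 3804 and 4692 of the 26434 tested probes. On day 7 every array lay below the controls for 4 of the 10 (PFKM, ALDOC, PGK1 and PGAM1), as for 8.96% of probes, and for 0 above. ALDOC was not well above background on every array. Every array lay above the controls for TPI1 on day 3 and HK2 on day 5, as for 13.1% and 10.3% of probes. The median change was 0.19 on day 3, -0.11 on day 5 and -0.12 on day 7, against 0.00, 0.02 and 0.03 over all genes. The smallest p on day 3 were those of the enolase ENO2, at 0.38 (limma, adjusted p = 0.340), and the triosephosphate isomerase TPI1, at 0.20 (limma, adjusted p = 0.419). On day 5 they were those of the hexokinase HK2, at 0.88, and the phosphofructokinase PFKM, at -0.44 (limma, adjusted p = 0.213 and 0.303). Day 5 was the only group with HK2 well above background on every array. It passed the filter through that group, which favours a difference. On day 7 the smallest p were those of the aldolase ALDOC, at -0.59, and PFKM, at -0.48 (limma, adjusted p = 0.206 and 0.213). HK3 and ENO3 had probes too dim to test. HK1, PFKL, PGAM2, ENO1, PKM and LDHB had no probe with that gene as its only name and were not analysed here.

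Among 8 tested regulators of glycolysis and pyruvate dehydrogenase, 1 was called. PDK4, a kinase that switches off pyruvate dehydrogenase and so keeps pyruvate out of the mitochondrial cycle, was -1.03, -0.91 and -1.56 on day 3, against -3.94, -4.70 and -2.95 in the controls. The groups did not overlap, with every day 3 array above the controls as for 13.1% of probes. Its day 3 change was 2.69, with a standard error of 0.49 (limma, adjusted p = 0.0083), and all 4 of its probes were called. Only 1 of the 3 control arrays was well above background for it, so it passed the filter through the later groups, which favours a difference. On days 5 and 7 its change was 1.40 and 1.25 (limma, adjusted p = 0.194 and 0.211). Its day 3 change was smaller, at 0.74, with the other background correction and its offset of 50, where it remained called (limma, adjusted p = 0.0295). The next smallest p on day 3 belonged to PFKFB4, which makes an activator of phosphofructokinase, at -0.94 (limma, adjusted p = 0.0711). On day 5 PFKFB4 had -0.40 (limma, adjusted p = 0.583), and on day 7 the pyruvate dehydrogenase subunit PDHB had 0.32 (limma, adjusted p = 0.442). The median of the list was 0.00, -0.05 and 0.00 on the 3 days.

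None of the 5 tested transporters of glucose and lactate was called on any day, and 0, 1 and 1 had an unadjusted p below 0.05 on days 3, 5 and 7. Of the 26434 tested probes, 5682, 3804 and 4692 had one. The glucose transporter SLC2A1 was 2.17, 2.61 and 2.25 on day 3, against 3.00, 1.87 and 3.38 in the controls, with the groups overlapping. Its change was -0.41, 0.34 and 0.42 on the 3 days (limma, adjusted p of 0.498, 0.690 and 0.512). These values rested on control replicate 2, the array that stood apart. Without it the changes were -0.85, -0.10 and -0.02 (limma, adjusted p of 0.0279, 0.878 and 0.969), so SLC2A1 was then called lower on day 3 and its sign turned on days 5 and 7. The lactate and pyruvate carrier SLC16A7 had changes of 0.47, 0.72 and 0.57 (limma, adjusted p of 0.295, 0.178 and 0.246). The list's median was 0.08, 0.10 and 0.37.

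Of 5 tested genes of the pentose phosphate pathway and gluconeogenesis, 1 was called higher on day 3 and 0 on the later days. PCK2, the mitochondrial form of phosphoenolpyruvate carboxykinase, was 2.25, 2.09 and 2.10 on day 3, against 1.29, 0.82 and 1.30 in the controls. Every day 3 array lay above the controls, as for 13.1% of probes, and the change was 1.01 (limma, adjusted p = 0.0050). On days 5 and 7 the changes were 0.62 and 0.67 for PCK2 (limma, adjusted p = 0.0937 and 0.0640). The phosphogluconate dehydrogenase PGD had changes of -0.75 on day 5 and -0.48 on day 7 (limma, adjusted p = 0.0628 and 0.194). The median of the list was 0.08, 0.03 and -0.04.

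**Figure D3:**
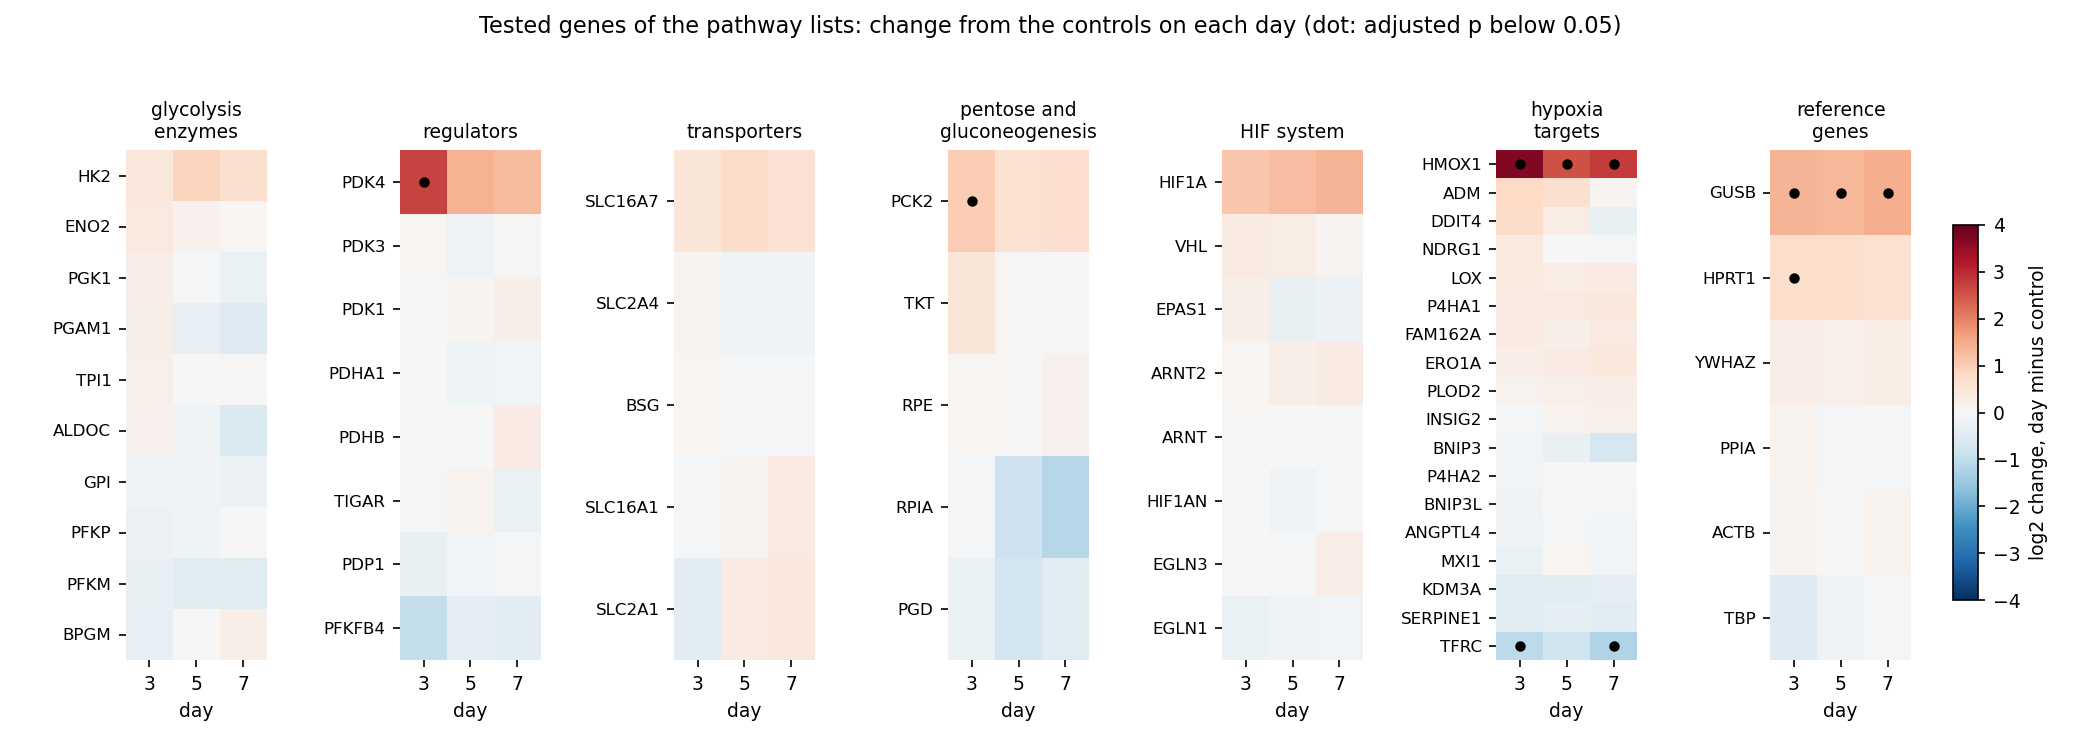
Log2 change against the controls on days 3, 5 and 7 for the tested genes of the 7 pathway and reference lists, with red for higher and blue for lower; a dot marks an adjusted p below 0.05. Dots stand at PDK4, PCK2, HMOX1, TFRC, GUSB and HPRT1, and none in the glycolysis enzymes, transporters or HIF system.

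None of the 8 tested genes of the HIF system was called, and 1 had an unadjusted p below 0.05 on each day. Of the 26434 tested probes, 5682, 3804 and 4692 had one on days 3, 5 and 7. Over the other settings the count of called genes in this list was 0 to 1 on each day. HIF1A, the oxygen-labile alpha subunit, was 0.75, 0.83 and 0.93 on day 3, 0.94, 1.48 and 0.44 on day 5, and 0.91, 0.29 and 2.06 on day 7, against -0.36, -0.26 and -0.24 in the controls. All 9 later arrays were above the controls, as for 5.19% of probes, and the spread grew on the later days. Its change was 1.12, 1.24 and 1.37 (limma, adjusted p = 0.105, 0.140 and 0.0839). The prolyl hydroxylase EGLN1, which marks HIF alpha subunits for breakdown, had a day 3 change of -0.27 (limma, adjusted p = 0.529). On day 5 the asparagine hydroxylase HIF1AN had -0.14 (limma, adjusted p = 0.677), and on day 7 the partner subunit ARNT2 had 0.33 (limma, adjusted p = 0.555). The list's median was 0.06, -0.02 and 0.02.

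Of 18 tested hypoxia targets, HMOX1 was called higher on all 3 days, and TFRC lower on days 3 and 7. HMOX1 is heme oxygenase, which breaks down heme. It was 0.55, 1.01 and 2.15 on day 3, -0.13, -0.25 and 0.62 on day 5, and 0.26, 0.31 and 0.41 on day 7, against -2.22, -2.92 and -2.28 in the controls. Every later array lay above every control, as for 5.19% of probes. The changes were 3.71, 2.56 and 2.80, or 13.1-fold, 5.89-fold and 6.99-fold (limma, adjusted p = 0.00021, 0.0048 and 0.0033). With the other background correction they were smaller, at 2.36, 1.39 and 1.58, and all were called (limma, adjusted p = 0.00031, 0.0320 and 0.0115). Its probe was named from its description after the files were seen, and 2 of 3 control arrays were well above background for it.

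TFRC, the transferrin receptor that brings iron into cells, was -2.33, -3.54 and -3.27 on day 3 and -2.91, -3.46 and -3.25 on day 7, against -1.98, -1.89 and -2.16 in the controls. Its change was -1.03 on day 3, -0.79 on day 5 and -1.19 on day 7 (limma, adjusted p = 0.0446, 0.184 and 0.0444). The groups did not overlap on any day, with all 9 later arrays below the controls as for 2.5% of probes. With the other background correction the changes were -0.36, 0.04 and -0.40, so the uncalled day 5 change turned sign. The calls of days 3 and 7 were lost in 17 of 22 settings on day 3 and in 14 of 22 on day 7, with adjusted p up to 0.331 and 0.417. Leaving out any 1 array but day 3 replicate 1 ended the day 3 call, and leaving out any but day 3 replicate 1, day 3 replicate 2 or control replicate 3 ended the day 7 call.

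The other 16 hypoxia targets were not called on any day. Over all 18 the count at an unadjusted p below 0.05 was 5 on day 3, 5 on day 5 and 6 on day 7. Over the 26434 tested probes it was 5682, 3804 and 4692. Besides HMOX1, P4HA1 and ERO1A had all 9 later arrays above the controls, as for 5.19% of probes. P4HA1, a subunit of the collagen prolyl hydroxylase, was -0.73, -0.53 and -0.69 on day 3, -0.62, -0.60 and -0.68 on day 5, and -0.62, -0.59 and -0.51 on day 7, against -1.02, -0.89 and -1.07 in the controls. Its changes were 0.34, 0.36 and 0.42 (limma, adjusted p = 0.143, 0.201 and 0.111). ERO1A, an oxidase that helps proteins form disulfide bonds, was 1.71, 1.70 and 1.69 on day 3, 1.97, 1.80 and 1.53 on day 5, and 1.85, 1.69 and 1.998 on day 7, against 1.46, 1.51 and 1.34 in the controls. Its changes were 0.27, 0.33 and 0.41 (limma, adjusted p = 0.332, 0.336 and 0.180). The vasodilator peptide ADM was -3.35, -3.47 and -2.26 on day 3, against -3.19, -4.71 and -3.61 in the controls. BNIP3, which takes part in the removal of mitochondria, was -1.04, -0.79 and -1.09 on day 7, against 0.21, -0.36 and -0.74 in the controls. The median change of the list was 0.05, 0.10 and -0.02, close to that of all genes.

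GAPDH is used as a reference gene, so the other reference genes were set beside it. Of 6 tested, GUSB, a lysosomal glucuronidase, was called higher on all 3 days, and HPRT1, a purine salvage enzyme, on day 3. GUSB was 2.31, 2.23 and 1.83 on day 3, 2.13, 2.19 and 1.91 on day 5, and 2.64, 1.97 and 2.02 on day 7, against 0.75, 0.44 and 1.07 in the controls. Its changes were 1.37, 1.32 and 1.46 (limma, adjusted p = 0.0051, 0.0121 and 0.0077). Its day 5 call was lost without day 5 replicate 1 (adjusted p = 0.0515), without day 5 replicate 2 (0.0508) and with the other background correction (0.0551). HPRT1 had a day 3 change of 0.71 (limma, adjusted p = 0.0390), which was called at 1 of its 4 probes and lost in 14 of 22 settings, including 8 of the 12 that leave out 1 array. The list's median was 0.21, 0.10 and 0.23. ACTB, PPIA, TBP and YWHAZ were not called on any day.

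**Figure D4:**
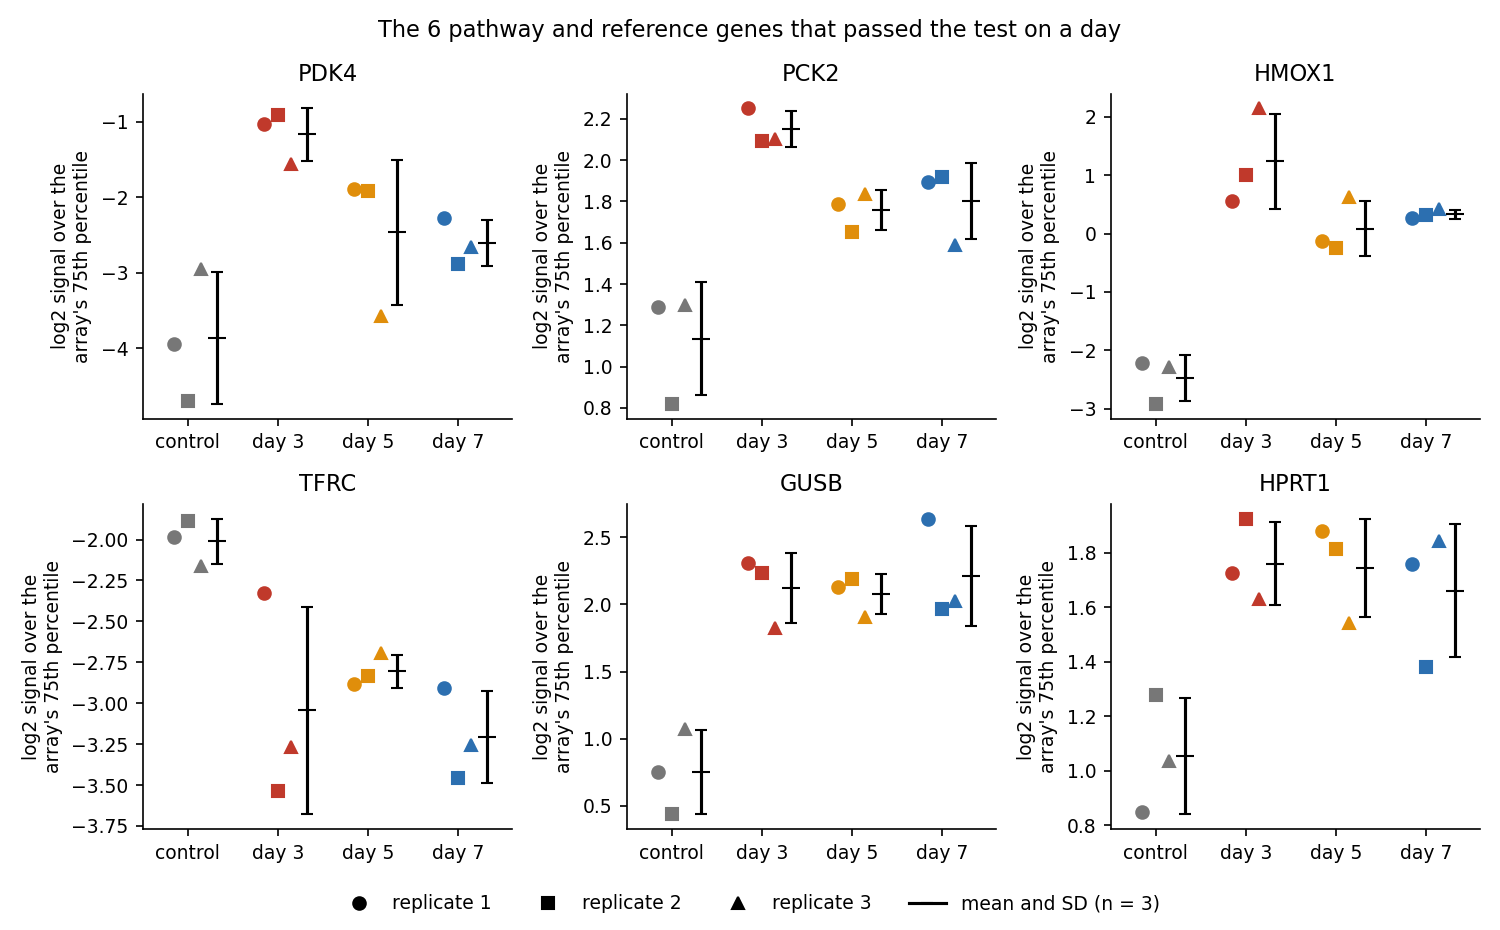
Level of the 6 pathway and reference genes that were called on at least 1 day, on each of the 12 arrays, as log2 signal over the array's 75th percentile; bars are mean and SD (n = 3), and each panel has its own axis range. HMOX1 and GUSB lie above the controls on every later array, and PDK4 and PCK2 are highest on day 3.

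The genes whose levels ran most like each member were found by Pearson's r over the 12 arrays, among 7282 other genes with 1 gene name. These r are descriptions, and the arrays share the group differences and the slides. LDHA was most like LOC100009168 (a serum amyloid A gene, r = 0.984), MAP1LC3B (an autophagosome protein, r = 0.974) and TIMP1 (an inhibitor of matrix proteases, r = 0.969). On day 3 their changes were 5.58, 0.84 and 3.49 (limma, adjusted p = 0.00040, 0.0040 and 7.7e-05). ANKRD37 was most like CYBA (a subunit of the phagocyte oxidase, r = 0.945), CXCR4 (a chemokine receptor, r = 0.944) and LUM (the matrix proteoglycan lumican, r = 0.940). On day 3 LUM rose by 1.13 (limma, adjusted p = 0.0172), while CYBA had 0.45 and CXCR4 1.43 (limma, adjusted p = 0.170 and 0.0573).

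ALDOA was most like PPM1G (a protein phosphatase, r = 0.964), WDR1 (an actin disassembly factor, r = 0.961) and TIMM50 (a mitochondrial import protein, r = 0.951). GAPDH was most like CDK5RAP3 (r = 0.895), AMOT (r = 0.891) and TTBK2 (r = 0.890). None of these 6 genes was called on any day. Among the members, ALDOA and GAPDH had r = 0.776, LDHA and ANKRD37 0.618, LDHA and GAPDH 0.590, and LDHA and ALDOA 0.346. ANKRD37 had r = -0.17 with GAPDH and -0.25 with ALDOA.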

How the data were processed

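The series holds 12 single-colour (Cy3) arrays of total RNA from rabbit basilar artery, 3 each of control, SAH day 3, day 5 and day 7, grouped by the labels. The files the authors deposited are scanner output, 1 per array; the submitters' processing notes name Agilent Feature Extraction (version 9.5.1.1). Its processed signal is a background-subtracted intensity per the file headers, with no scaling between arrays. Per the file headers, the mean signal and the local background are unprocessed intensity measures, and the deposited flags for well above background, outlier and saturation are of another kind, 0 or 1 per spot. The authors' value table holds an intensity with the same median, 27.0, in every column, and was used only as an alternative.

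From these, control spots were left out, outlier spots set to missing, log2 of the processed signal taken relative to the array's 75th percentile, and spots of a probe averaged. A probe was tested where every array of 1 or more groups had it well above background. All groups were fitted at once, without a block for the slide (a replicate number is 1 slide with an array of every group), with limma 3.58.1 (in R 4.3.3, with version 1.17.8 of the package data.table), two-sided, with Benjamini-Hochberg adjustment over all tested probes. The number of arrays limits the precision.

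Probes were named through the array's accessions, names and descriptions and RefSeq genes (assembly mOryCun1.1), whose coordinates were not used. A single gene was found for 22190 probes, several for 200 and no gene for 21233. The names of HMOX1, COL1A2 and C1QB come from descriptions and were added after the files were seen. A probe described as the spermatogenic form of GAPDH was not counted as a member. Some genes of the lists are not reported here and enter no count or median of a list. The members and lists were chosen with earlier results of these data known. Named are the members; from each list and day, up to 4 called genes in each direction, or with none called the 2 with the smallest p; and the 3 genes most like each member. Some further genes (ADM, BNIP3, P4HA1, ERO1A, SLC2A1, HIF1A and the marker genes) were given per array after their values were seen. The alternatives tried were a replicate block, normexp background correction (offset 50), quantile normalization, median scaling, the authors' table, no filter on dim probes, array weights, the mean of a gene's probes, trend and robust variances, only the 2 groups compared, and leaving out each array.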

Additional observations from a re-analysis of the deposited data

How the results depend on the processing

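LDHA kept its day 3 call in all 22 settings, with changes of 1.42 to 1.75, and in none was a called change of a member reversed. Its later changes against the controls were called in none. LDHA was lower on day 5 than on day 3 at a called -1.22 with normexp background correction and -0.99 with array weights, and on day 7 than on day 3 at -1.07 and -0.89. Leaving out 1 array gave -1.17 to -0.87 and -1.21 to -0.88. The day 3 change of ANKRD37 was not called with normexp (0.31), without a filter on dim probes (1.08, adjusted p = 0.107) or with only the 2 groups compared (1.08, adjusted p = 0.117). Leaving out 1 array gave 0.79 to 1.35 at day 3, 0.71 to 1.27 at day 5 and 0.69 to 1.25 at day 7. With array weights its day 7 change was called at 1.20. ALDOA and GAPDH were called in no setting, though the sign of ALDOA on day 3 varied, with changes of -0.07 to 0.28. Besides the members, no glycolysis enzyme of the list was called against the controls in any of the 22 settings. For the transporters, and also for the HIF system, the count reached 1 called gene on each of days 3, 5 and 7. Such a call came with array weights, with only the 2 groups compared, or without control replicate 2, control replicate 3, day 7 replicate 2 or day 7 replicate 3. The causes were not tested, apart from the larger adjustment that more probes bring without the filter and the smaller fit of 2 groups. The offset of 50 in the normexp setting by itself makes log2 changes of dim probes smaller, and how much of the smaller changes it accounts for was not tested.

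Replicate numbers are also slides, so same-numbered arrays share a batch. Of 18 same-numbered pairs, 10 had deviations correlated above 0.1, with r of -0.15 to 0.39, and 10 of 12 arrays correlated best with their own number. With the replicate block, LDHA on day 3 kept 1.58 (adjusted p = 0.0032) and ANKRD37 1.08 (adjusted p = 0.0391). The block gave 954 probes called on day 7 and 2 for day 7 against day 3, and changed no call of a member and no count of calls in a pathway list.

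The counts of called probes were 1754, 533 and 597 on days 3, 5 and 7, 3 for day 5 against day 3 and 38 for day 7 against day 3. Normexp gave 1007, 221 and 253, and 56 for day 5 against day 3. No filter gave 974, 345 and 305, and 3 for day 7 against day 3, and moved the median of all probes by -0.16, -0.13 and -0.15. Array weights gave 1368 on day 5 and 1388 on day 7, 861 for day 5 against day 3 and 280 for day 7 against day 3. The share of calls that were higher was then 70.5% on day 5 and 64.0% on day 7, against 88.4% and 82.2%. The mean of a gene's probes, with fewer features, gave 1117, 343 and 390, and 18 for day 7 against day 3. Fits of only the 2 groups gave 897, 210 and 292, and 0 and 12 between days. For day 7 against day 3, the count was 4 with median scaling and 20 with the authors' values. Trend and robust variances gave 6 for day 5 against day 3. Leaving out 1 array gave 789 to 1943, 280 to 685 and 229 to 1692 on the 3 days, 0 to 5 for day 5 against day 3 and 2 to 70 for day 7 against day 3. Array signal limits ANKRD37, which lies near background in the controls.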
